A study of Mus musculus with 6 samples.

Results

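Ribosomal protein genes of the cytosolic ribosome were followed in 4T1, a cell line from a mouse mammary carcinoma, after transduction with a control shRNA vector or with a vector expressing an shRNA against NFAT1. Members were chosen by symbol: Rpl or Rps followed by a digit, or Rplp0, Rplp1, Rplp2 or Rpsa, leaving out S6 kinases and pseudogenes. Only probe sets that carry a single gene symbol were used, and each gene was read by its probe set with the highest mean over the 6 arrays. The rule found 50 of the 18193 genes measured, with 26 large-subunit and 24 small-subunit names. Of these, 43 encode ribosomal proteins. Another 6 (Rpl3l, Rpl7l1, Rpl22l1, Rpl39l, Rps4l and Rps27l) encode paralogs of one. Rps19bp1 encodes a protein that binds RPS19 and is no part of the ribosome, so the label goes against it. The label was taken to hold for the other 49 by their symbols, including Rpl7l1, a protein of large-subunit assembly. Rplp1 had no probe set of its own symbol alone and was not analysed here.

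Each group held 3 arrays, numbered 1 to 3. Both groups were adherent cultures of the same line that had gone through vector transduction and 10 days of selection, and they differed in the shRNA carried. From each sample 200 ng of total RNA was amplified, labelled with biotin and hybridised to an Affymetrix mouse array. Whether the 3 arrays stand for independent cultures is not in the labels, so the spread behind each p-value may be technical. The labels name neither the shRNA sequence nor clones. Values are log2 RMA signals, and every difference is the NFAT1 shRNA mean minus the control mean on that scale. Each ± is the moderated standard error (SE) of limma, which draws a gene's variance towards a value common to all genes. Among members these SEs were at least 0.069, while residual SDs between arrays went down to 0.006. For members with little spread between arrays the SE thus mostly reflects that common value. A signal depends on the probes as well as on the RNA, so levels of different genes were not ranked. In bulk RNA, fewer cells with a transcript and less of it per cell cannot be told apart.

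The ribosome joins a small subunit, which reads the mRNA, to a large subunit, which forms the peptide bond, and ribosomal proteins fold and stabilise the ribosomal RNA of each. Their mRNAs are among the most abundant of a growing cell, and most begin with a C followed by an unbroken run of pyrimidines, the terminal oligopyrimidine (TOP) tract. Through that tract the kinase complex mTORC1 and the RNA-binding protein LARP1 set how strongly these mRNAs are translated and how long they last. NFAT1, encoded by Nfatc2, is a calcium-activated transcription factor whose family binds the core GGAAA.

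The pyrimidine run at the start that ribosomal protein mRNAs are known for was found at an annotated start of 11 of the 44 members examined. Of those 11 members, 6 that are described below are shown first. Each stretch is from the RefSeq promoter table (build GRCm38.p6), reads 5′ to 3′ on the gene's strand, and holds 15 bases before the annotated start and 15 from it on. Capitals mark the unbroken run of C and T that begins at the annotated start.

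Rps18 (chr17:33955651-33955680, minus strand): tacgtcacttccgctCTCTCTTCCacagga

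Rps10 (chr17:27635230-27635259, minus strand): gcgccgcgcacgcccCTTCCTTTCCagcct

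Rpl35 (chr2:39005117-39005146, minus strand): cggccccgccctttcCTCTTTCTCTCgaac

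Rps6 (chr4:86857353-86857382, minus strand): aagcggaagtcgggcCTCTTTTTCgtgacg

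Rps27 (chr3:90213634-90213663, minus strand): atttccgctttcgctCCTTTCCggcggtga

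Rpl27a (chr7:109519180-109519209, plus strand): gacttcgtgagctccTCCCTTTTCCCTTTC

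The run measured 9 bases in Rps18, 10 in Rps10, 11 in Rpl35, 9 in Rps6 and 7 in Rps27. In Rpl27a it measured 16 bases, 1 more than shown, and opened with T rather than C. The other 33 members had no annotated start with a run of at least 5 bases. Of these, 3 ribosomal proteins described below and 3 paralogs are shown in the same frame for comparison. In Rpl12, Rps27l and Rpl22l1 the annotated start is a G and an unbroken run of C and T follows it directly. These were counted as without a run, because the count asks for one from the annotated start on.

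Rpl12 (chr2:32961697-32961726, plus strand): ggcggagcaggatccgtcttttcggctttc

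Rps25 (chr9:44407699-44407728, plus strand): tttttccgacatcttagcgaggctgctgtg

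Rps3 (chr7:99483695-99483724, minus strand): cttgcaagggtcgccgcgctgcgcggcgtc

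Rps27l (chr9:66946071-66946100, plus strand): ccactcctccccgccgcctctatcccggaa

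Rpl22l1 (chr3:28805493-28805522, plus strand): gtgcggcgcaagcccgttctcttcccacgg

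Rpl7l1 (chr17:46782642-46782671, minus strand): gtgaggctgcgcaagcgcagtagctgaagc

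RefSeq windows from 250 bases before to 50 after the annotated start were at hand for 44 of the 50 members. Some genes have several annotated starts, and a gene was counted if any of its windows held the feature. A run of at least 5 pyrimidines from an annotated start on was present in 11 members (25%), against 5.28% of 27025 genes. An annotated start that is off by a few bases hides a tract from this count. Motifs were searched by their letters on both strands of the window. CCGGAAG, a form of the site of ETS factors such as GABP, was in 21 members (47.7%) and in 9.93% of genes. AAGATGGC, a form of the YY1 site, was in 4 members (9.09%) and in 3.19% of genes. TATAAA was in 6 members (13.6%) and in 15.7% of genes. GGAAA was in 39 members (88.6%) and in 64.4% of genes, a core so short that most windows hold it. None of these motifs contains another, but some can overlap at their ends. The 11 members with a pyrimidine run from an annotated start on had a median difference of -0.0019 (range -0.30 to 0.12). The 33 without one at that position had a median of 0.012 (range -0.35 to 0.15).

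The arrays themselves set limits on these values. NFAT1 shRNA array 1 was the nearest of its group to the control mean for 46.3% of genes, and limma's array weights gave it 0.253 against 10.4 for control 3 (the other 4 had 0.584 to 1.01). Single-array values are therefore given for the members with the largest differences. Nfatc2 was read by 6 probe sets, 4 with a lower and 2 with a higher mean, and all were dim, with means from 3.57 to 6.08. On 1439205_at the controls read 6.05, 6.18 and 5.91 and the NFAT1 shRNA arrays 5.15, 5.43 and 5.29, without overlap and with array 1 the lowest (adjusted p = 0.0707 over all probe sets, limma). On 1426032_at, the brightest of the 6, the groups did not overlap in the other direction. There the controls read 5.92, 5.92 and 5.86 and the NFAT1 shRNA arrays 6.19, 6.48 and 6.09. The difference was 0.35 (unadjusted p = 0.0194, adjusted p = 0.251, limma over all probe sets). The epithelial markers Krt8, Krt18, Krt7, Epcam and Cdh1 had means from 12.03 to 13.07. All measured leukocyte, endothelial and adipocyte markers stayed at or below a mean of 5.81, and fibroblast markers at or below 7.47, with 0 of the 21 markers changed (limma, 2 with an unadjusted p under 0.05, Krt18 and Kdr).

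None of the 50 genes differed between the groups by the test across all genes. With limma, 0 of 50 had a Benjamini-Hochberg adjusted p under 0.05, against 0.511% of all genes (93 of 18193), and 0 of 50 had an unadjusted p under 0.05, against 17.1% of all genes. The smallest adjusted p among them was 0.333, for Rps27l. With a background of 0.511%, a count of 0 among 50 genes is near what all genes give, whereas the count by unadjusted p is below the background share. Groups that did not overlap with the NFAT1 shRNA arrays higher were found for 2 members, Rpl19 and Rps16, against 14.2% of all genes. Groups that did not overlap with those arrays lower were found for 3 members, Rps27l, Rpl27a and Rps29, against 8.61% of all genes.

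The median difference over the members was 0.015, beside 0.043 over all genes, with 26 members higher and 24 lower in mean. Without NFAT1 shRNA array 1 the median was 0.031. Differences ran from -0.349 (Rpl12) to 0.148 (Rps9), and 0 members reached 0.5 in either direction. A difference within 0.1 was seen for 37 of 50 members (74%) and for 37.6% of all genes. The median size of a difference was 0.043 for members and 0.144 for all genes, and the median residual SD between arrays was 0.072 and 0.144. This contrast was seen among bright genes and not among those of middle signal. Among genes with a mean signal of at least 12, a difference within 0.1 was seen for 88.9% of the 36 members and 43.1% of the 255 other genes, with median sizes of 0.032 and 0.128 and median residual SDs of 0.054 and 0.110. Over all 554 probe sets at that signal, which include 66 probe sets of members, the share was 54.9%. Among genes with a mean from 6 to 12 the share was 20% of the 10 members and 25.4% of the 9412 other genes. For those 36 members the limma 95% confidence intervals all lay between -0.477 and 0.380, and over all 50 members between -0.985 and 0.499. The 36 had means of 12.14 to 14.07, near the highest value of the table, 14.22, and whether their signals were saturated was not tested. The intervals therefore hold for these probe sets and do not bound the change of the transcript, and dimmer probe sets of the same genes gave wider ones, such as -2.30 to 0.17 for Rps9 on 1426958_at and -1.83 to -0.05 for Rps10 on 1436384_at.

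**Figure D1:**
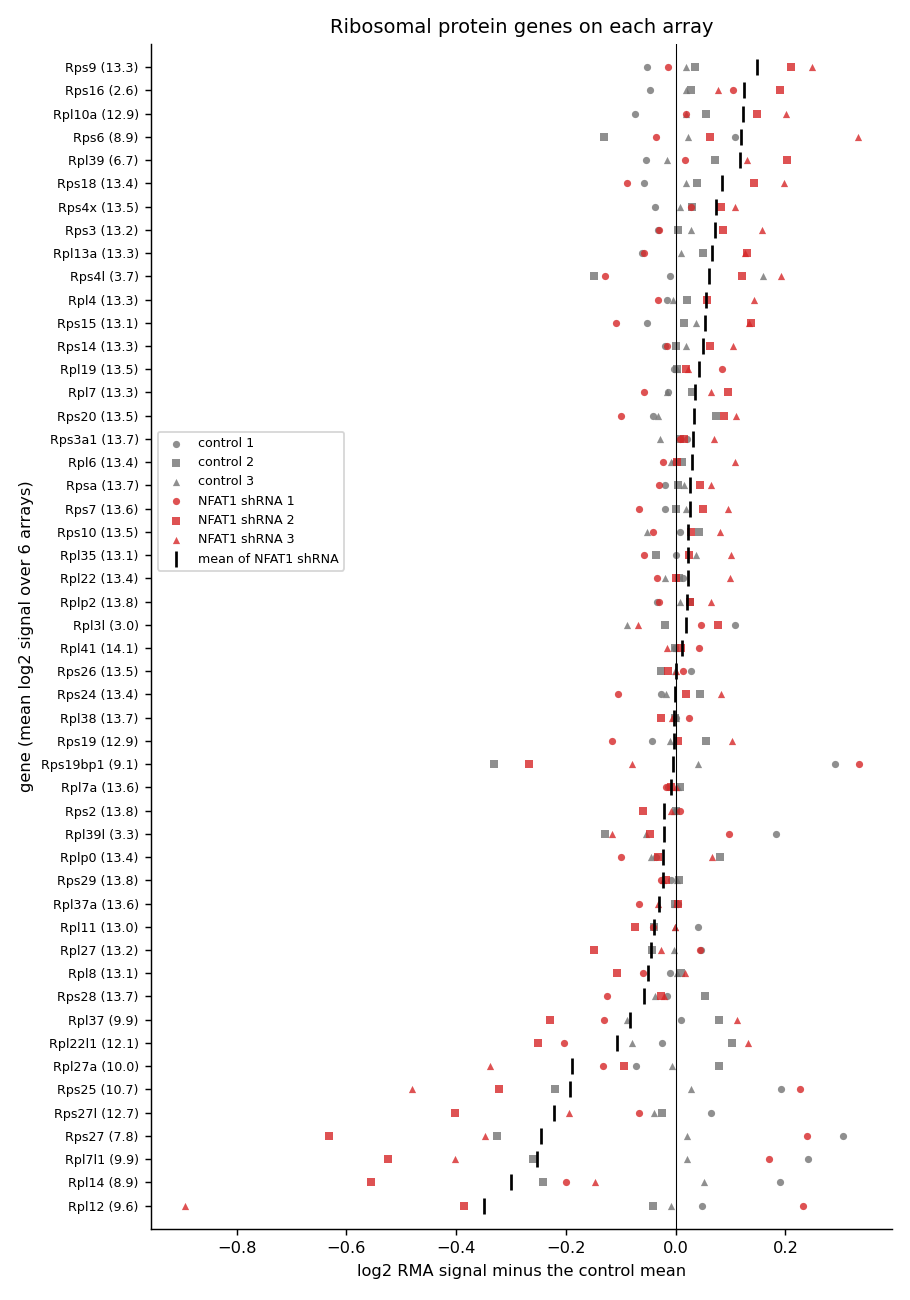
Each row is a member gene with its mean log2 signal in parentheses, and each point is 1 array's log2 RMA signal minus the control mean, in grey for control and red for NFAT1 shRNA. The black tick is the mean of the 3 NFAT1 shRNA arrays, which runs from -0.349 for Rpl12 to 0.148 for Rps9, and most rows of bright genes lie within 0.1 of 0.

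Signal level separated the members more than subunit did. The median difference was -0.006 for large-subunit and 0.026 for small-subunit names. The 36 members with a mean of at least 12 had a median of 0.022, with 21 higher and 15 lower. They make up 36 of only 291 genes at that signal, and 31 of the 69 genes at 13 or more. The 10 members between 6 and 12 had a median of -0.190, and 8 of them, Rps19bp1 (-0.004) included, had a lower mean. Over the 9412 genes at that signal that are not members, the median was 0.017, with 4484 lower. The other 4 members, namely Rpl39l, Rpl3l, Rps4l and Rps16, were read below 6 by the probe sets used here, under the array medians of 5.42 to 5.48. A filter asking for a mean of at least 6 thus kept 46 of 50 members, and a filter asking for 7 on at least 3 arrays kept 45.

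**Figure D2:**
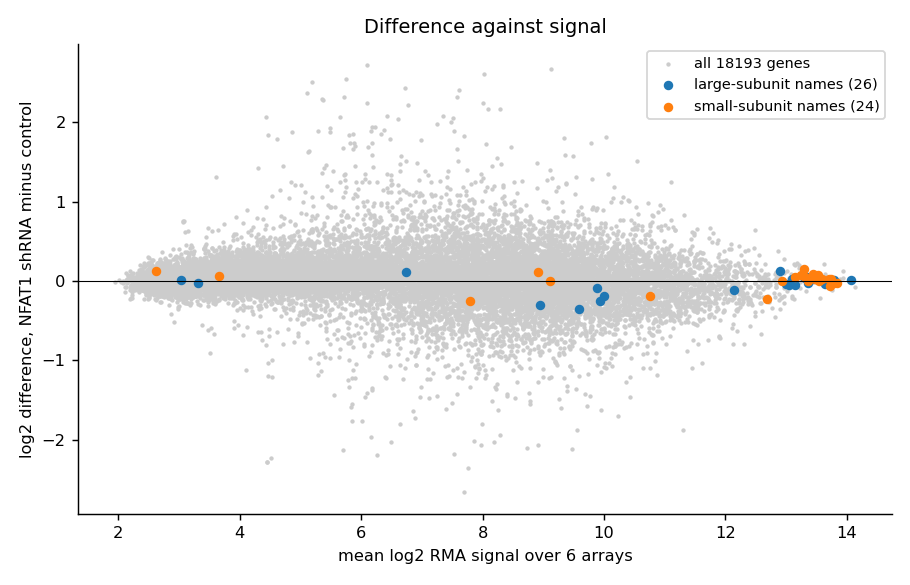
Mean log2 RMA signal over 6 arrays (x axis) against the log2 difference, NFAT1 shRNA minus control (y axis), for all 18193 genes in grey and for large-subunit (blue) and small-subunit (orange) members. The 36 bright members at 12 or more lie near 0, and the lower values belong mostly to the 10 members between 6 and 12.

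For the bright members on single arrays, the median deviation from the control mean was -0.015, 0.009 and 0.000 on the 3 controls and -0.033, 0.016 and 0.076 on NFAT1 shRNA arrays 1, 2 and 3. Array 3 was the highest of the 6 and array 1 the lowest. NFAT1 shRNA arrays 2 and 3 were both above all controls for 14 of the 36 (38.9%, against 28.3% of all genes) and both below for 4 (11.1%, against 19.9%). The 10 members of middle signal spread more, at 0.149, -0.176 and 0.021 on the controls and 0.094, -0.294 and -0.243 on the NFAT1 shRNA arrays. There NFAT1 shRNA array 1 lay inside the controls' range, and NFAT1 shRNA arrays 2 and 3 lay below it. In both groups array 1 read highest and array 2 lowest, and whether same-numbered arrays belong together is not in the labels.

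Among the small-subunit proteins, Rps9, which sits near the shoulder of the subunit and contributes to decoding accuracy, had the highest difference. Its controls read 13.16, 13.25 and 13.23 and its NFAT1 shRNA arrays 13.20, 13.42 and 13.46. Arrays 2 and 3 lay above all controls and array 1 among them, and the difference was 0.15 ± 0.10 (SE, n = 3 each; adjusted p = 0.445, limma). Without NFAT1 shRNA array 1 it was 0.23 ± 0.08 (adjusted p = 0.117, limma). Other probe sets of Rps9 gave other directions, as described below.

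Rps18, Rps3 and Rps4x, all of the small subunit, also had arrays 2 and 3 above all controls. Rps18, a protein of the subunit's head, read 13.34, 13.44 and 13.42 in controls and 13.31, 13.54 and 13.60 in NFAT1 shRNA cells (difference 0.08 ± 0.10, adjusted p = 0.674). Rps3, which lines the mRNA entry channel, read 13.17, 13.21 and 13.23 against 13.17, 13.29 and 13.36 (difference 0.07 ± 0.08, adjusted p = 0.664). Rps4x, encoded on the X chromosome, read 13.45, 13.52 and 13.50 against 13.52, 13.57 and 13.60 (difference 0.07 ± 0.07, adjusted p = 0.616). Array 1 lay among the controls for Rps3 and Rps4x and below them for Rps18, and the differences were about the size of their moderated standard errors. For Rps4x the residual SD between arrays was only 0.038, so that error lies above what its own arrays give. Rps15 stood at 0.05 ± 0.10. On the dimmer probe set 1455600_at, Rps3 read 9.72, 9.76 and 9.79 in controls and 9.90, 10.38 and 10.13 in NFAT1 shRNA cells. These groups did not overlap (0.38 ± 0.13, unadjusted p = 0.0208, adjusted p = 0.256, limma over all probe sets).

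Rps6, the small-subunit protein phosphorylated by S6 kinases downstream of mTORC1, was read in the middle range of signal. Its controls read 8.97, 8.73 and 8.88 and its NFAT1 shRNA arrays 8.82, 8.92 and 9.19, and only array 3 left the range of the controls. The difference was 0.12 ± 0.12 (adjusted p = 0.625, limma).

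Among large-subunit proteins, Rpl10a and Rpl39 had the highest differences. Rpl10a, a protein of the mobile L1 stalk, read 12.77, 12.90 and 12.86 in controls and 12.86, 12.99 and 13.04 in NFAT1 shRNA cells, with arrays 2 and 3 above all controls (0.12 ± 0.09, adjusted p = 0.477). Rpl39, a small protein of the peptide exit tunnel, read 6.63, 6.76 and 6.67 against 6.70, 6.89 and 6.82 (0.12 ± 0.09, adjusted p = 0.495). Array 1 was again the NFAT1 shRNA array that lay among the controls. Rpl13a stood at 0.07 ± 0.09 and Rpl4 at 0.06 ± 0.08.

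The stalk that recruits elongation factors is built from Rplp0 and the acidic proteins. Rplp0 differed by -0.022 (adjusted p = 0.904) and Rplp2 by 0.020 (adjusted p = 0.90), both smaller than their moderated standard errors. Rps29, a zinc-binding protein of the small-subunit head, is a case of non-overlap without size. Its controls read 13.79, 13.80 and 13.80 and its NFAT1 shRNA arrays 13.77, 13.78 and 13.78, a difference of -0.023 with an adjusted p of 0.880. Rpl19, of the large subunit, did not overlap in the other direction, at 13.52 on each control against 13.61, 13.54 and 13.54, and differed by 0.042 (adjusted p = 0.777).

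The lowest differences belonged to large-subunit proteins of middle signal. Rpl12, a protein at the base of the stalk, read 9.80, 9.71 and 9.75 in controls and 9.99, 9.37 and 8.86 in NFAT1 shRNA cells. Array 1 was the highest of the 6 and array 3 the lowest, so the difference of -0.35 ± 0.26 (SE; adjusted p = 0.506, limma) averages arrays that disagree. Without NFAT1 shRNA array 1 the difference was -0.64 ± 0.15 and the adjusted p 0.0350 (limma). Rpl12 was then the only member past the threshold. That setting called 18.4% of all genes (3349 of 18193), so 1 of 50 members is below its background share, and 6 members (12%) had an unadjusted p under 0.05 against 32.2% of genes.

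Rpl14, a protein of the large subunit's solvent side, read 9.28, 8.85 and 9.14 in controls and 8.89, 8.54 and 8.94 in NFAT1 shRNA cells. The groups overlapped, because control 2 read below NFAT1 shRNA arrays 1 and 3 (-0.30 ± 0.16, adjusted p = 0.362). Rpl27a read 10.03, 10.18 and 10.09 against 9.97, 10.00 and 9.76, with all NFAT1 shRNA arrays below all controls and array 1 included. Its difference was -0.19 ± 0.10 (adjusted p = 0.357, limma). Rpl37 stood at -0.08 ± 0.11.

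Among small-subunit proteins, Rps27 and Rps25 had the lowest differences. Rps27, a zinc-binding protein, read 8.21, 7.58 and 7.93 in controls and 8.15, 7.28 and 7.56 in NFAT1 shRNA cells (-0.25 ± 0.26, adjusted p = 0.628). Rps25, used by some viral and cellular internal ribosome entry sites, read 11.04, 10.63 and 10.87 against 11.07, 10.52 and 10.37 (-0.19 ± 0.20, adjusted p = 0.636). In both genes the spread among controls was about as large as the difference, and array 1 lay within or just above the controls. Rps28 stood at -0.06 ± 0.08.

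The paralogs are members that arose from copies of ribosomal protein genes and can replace the parent protein or serve other tissues. Rps27l, which p53 is known to induce, had the smallest p of all members. It read 12.86, 12.77 and 12.75 in controls and 12.73, 12.39 and 12.60 in NFAT1 shRNA cells, without overlap. The difference was -0.22 ± 0.11 (unadjusted p = 0.078, adjusted p = 0.333, limma). Its parent Rps27 had a difference of similar size with overlapping groups.

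Rpl22l1, whose mRNA the parent protein Rpl22 is known to restrain, read 12.17, 12.30 and 12.11 in controls and 11.99, 11.94 and 12.32 in NFAT1 shRNA cells. Arrays 1 and 2 lay below all controls and array 3 above them (-0.11 ± 0.12, adjusted p = 0.665). Rpl22 differed by 0.022 (adjusted p = 0.895). Rpl7l1, a protein of large-subunit assembly, read 10.30, 9.80 and 10.08 in controls and 10.23, 9.53 and 9.65 in NFAT1 shRNA cells. Arrays 2 and 3 lay below all controls (-0.25 ± 0.21, adjusted p = 0.55), while its parent Rpl7 differed by 0.035 (adjusted p = 0.837). Rpl39l, known from male germ cells, Rpl3l, known from striated muscle, and Rps4l were read at means of 3.31, 3.04 and 3.65, near background, with adjusted p-values from 0.814 to 0.932. Rps19bp1 differed by -0.004 ± 0.21.

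Several probe sets of a single member did not always tell the same story. The members had 106 single-symbol probe sets, of which 24 genes had several (up to 6) and 26 had 1. Among the 24, all probe sets were higher in mean for 7 genes, all lower for 6, and mixed in sign for 11. Over all probe sets limma called 0.200% (90 of 45037), and 0 of the 106, with 5 of the 106 (4.72%) at an unadjusted p under 0.05 against 15.7% of all probe sets. Of these 5, 4 were lower and 1, 1455600_at of Rps3, was higher. A difference of -0.5 or lower was measured on 4.74% of all probe sets. It was also measured on 8 of the 106 member probe sets. All 8 were among the 56 that were not the brightest of their gene. They were spread over 7 genes, whereas the brightest probe sets of those 7 genes differed by -0.031 to 0.148. Among probe sets with a mean signal from 6 to 12, it was measured on 7 of 27 member probe sets and on 1686 of all 18853. The mean signals of the 8 were 5.18 to 9.60 and their adjusted p-values 0.145 to 0.441. On all 8, NFAT1 shRNA arrays 2 and 3 were below all controls, while array 1 was within the controls on 3, above on 3 and below on 2. The 8 were picked by their low NFAT1 shRNA mean on these same arrays, so this arrangement is partly set by the choice.

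Rps9 had the widest range. Probe set 1426958_at read 8.88, 8.34 and 8.64 in controls and 8.85, 7.02 and 6.80 in NFAT1 shRNA cells, a difference of -1.06 ± 0.52 (adjusted p = 0.365, limma over all probe sets). Array 1 stood with the controls there and arrays 2 and 3 far below. A further Rps9 probe set, 1434624_x_at, differed by 0.018. So for Rps9 the sign of the difference depends on the probe set read.

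Rps10, which binds at the subunit's head and is a target of ribosome-collision ubiquitylation, showed the same arrangement. On 1436384_at it read 7.81, 7.48 and 7.60 in controls and 7.55, 6.59 and 5.94 in NFAT1 shRNA cells (-0.94 ± 0.37, adjusted p = 0.304), against 0.023 on the brightest probe set. Rpl35, a large-subunit protein at the exit of the tunnel, read 6.69, 6.21 and 6.48 against 6.47, 5.49 and 5.04 on 1454833_at (-0.80 ± 0.35, adjusted p = 0.330), against 0.022 on the brightest. In both genes array 1 lay among the controls and array 3 was lowest.

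Rps24, needed for processing of the small subunit's RNA, was lower on all 3 NFAT1 shRNA arrays on 1 of its 6 probe sets. Probe set 1455195_at read 9.42, 9.87 and 9.56 in controls and 9.12, 8.92 and 8.83 in NFAT1 shRNA cells, without overlap (-0.66 ± 0.14, adjusted p = 0.145). The brightest probe set of Rps24 differed by -0.002, and 1436500_at, at a mean of 4.83, was higher by 0.33. Probe set 1448398_s_at of Rpl22 was higher, with 9.33, 9.77 and 9.59 in controls and 9.54, 10.80 and 11.00 in NFAT1 shRNA cells (0.88 ± 0.37, adjusted p = 0.322). It was the only member probe set higher by at least 0.5, and the gene's brightest probe set differed by 0.022. The other genes with such a dimmer probe set, named after their values were seen, were Rps18 (1421838_at, -0.70), Rpl41 (1433530_at, -0.64, and 1454639_x_at, -0.60) and Rpl37a (1416218_x_at, -0.56). The stretch of transcript behind each of these signals was not analysed here.

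**Figure D3:**
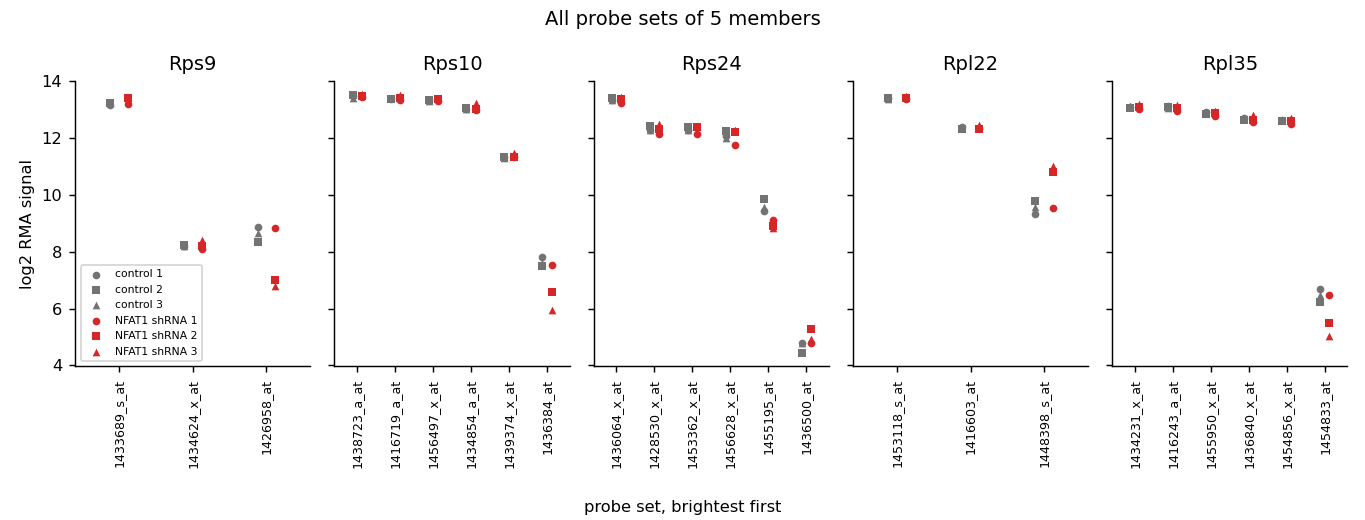
Log2 RMA signal (y axis) on the 3 control (grey) and 3 NFAT1 shRNA (red) arrays for every single-symbol probe set of Rps9, Rps10, Rps24, Rpl22 and Rpl35, ordered from brightest to dimmest (x axis). The brightest probe sets overlap between groups, and arrays 2 and 3 leave the controls on a dimmer probe set of each gene, downward in Rps9, Rps10, Rps24 and Rpl35 and upward in Rpl22. On a further dim probe set of Rps24, 1436500_at, arrays 2 and 3 lie above the controls. The genes were picked for the widest range of differences among their probe sets on these same arrays.

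By signal, the 30 unchosen probe sets at 12 or more had a median difference of -0.004, the 17 between 6 and 12 a median of -0.251, and the 9 below 6 a median of 0.018. The unchosen and chosen probe sets of middle signal thus both lay lower. Over all 18853 probe sets with a mean from 6 to 12 the median was -0.027. Of the chosen probe sets, 33 carry an ID ending in _s_at, _x_at or _a_at, the array maker's mark for probes that may read several transcripts, and 17 do not. Ribosomal protein genes have many processed pseudogenes, so signals from near-identical copies cannot be told apart here. Another 110 probe sets carry a member-type symbol beside other symbols and were outside the rule. Their median difference was 0.018, with 0 changed (limma over all probe sets, 9, or 8.18%, at an unadjusted p under 0.05).

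Genes that act with ribosomal proteins were counted from lists chosen by function, and 0 genes of these lists changed by limma. An unadjusted p under 0.05 was found for 17.1% of all genes. The shares were 13.3% for the TOP list, 6.25% for the mTORC1 axis and 10% for the promoter factors. They were 7.41% for initiation and release factors, 25% for chaperones and transport, and 9.21% for mitochondrial ribosomal proteins. Of these, only the chaperone and transport list was above the share of all genes. Fau, the source of the small-subunit protein eS30, differed by 0.035 (13.31 in controls and 13.35 in NFAT1 shRNA cells, adjusted p = 0.814). Rack1 was not analysed here. Of 15 measured genes other than ribosomal proteins whose mRNAs carry a TOP tract, 11 were higher and 4 lower in mean, with a median of 0.065. Most encode translation factors, but some do not, such as Vim, whose difference of 0.38 was the highest of the list. At an unadjusted p under 0.05 there were 0 higher and 2 lower. These were the histone chaperone gene Nap1l1, at 12.58, 12.39 and 12.57 in controls against 11.96, 11.70 and 11.98 (-0.63 ± 0.11, adjusted p = 0.0753, limma), and the RNA-binding protein gene Hnrnpa1 (-0.33).

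Of 16 genes of the mTORC1, S6 kinase and LARP1 axis, 9 were higher and 7 lower in mean, with a median of 0.002. Only Rptor, the substrate-binding subunit of mTORC1, had an unadjusted p under 0.05, with a difference of 0.21 (adjusted p = 0.262, limma). Of 10 factors known to bind ribosomal protein promoters, 6 were lower in mean, with a median of -0.132. Yy1 alone had an unadjusted p under 0.05, at 11.06, 11.03 and 11.02 in controls against 10.80, 10.67 and 10.75, without overlap (-0.30 ± 0.08, adjusted p = 0.170).

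Of 27 initiation and release factors, 19 were lower and 8 higher in mean, with a median of -0.167. At an unadjusted p under 0.05 there were 2 lower, Abce1, which recycles ribosomes (-0.55), and Eif2b5, a subunit of the exchange factor for eIF2 (-0.37). Of 16 chaperones, importers and export factors that handle ribosomal proteins and subunits, 13 were lower and 3 higher, with a median of -0.361. Those at an unadjusted p under 0.05 were the importers Tnpo1 (-0.43) and Ipo5 (-0.36) and the exporter Xpo1 (-0.43), and in the other direction Aamp, the homolog of a yeast chaperone of Rpl10 (0.49, adjusted p = 0.120). The 76 genes for mitochondrial ribosomal proteins, which serve a separate ribosome, had a median of -0.116, with 59 lower and 17 higher, and at an unadjusted p under 0.05 there were 5 lower and 2 higher.

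On single arrays, NFAT1 shRNA arrays 2 and 3 were below all controls in the medians of the initiation, chaperone and mitochondrial lists, and array 1 was not. The initiation list had medians of 0.077, -0.106 and 0.026 on the controls and 0.006, -0.283 and -0.202 on the NFAT1 shRNA arrays. The mitochondrial list had medians of 0.107, -0.139 and 0.025 on the controls and 0.109, -0.322 and -0.164 on the NFAT1 shRNA arrays. The chaperone and transport list had 0.171, -0.137 and 0.015 on the controls and 0.084, -0.615 and -0.350 on the NFAT1 shRNA arrays. The spread between replicate arrays was thus of the order of the difference between groups, and its part in these medians was not tested.

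**Figure D4:**
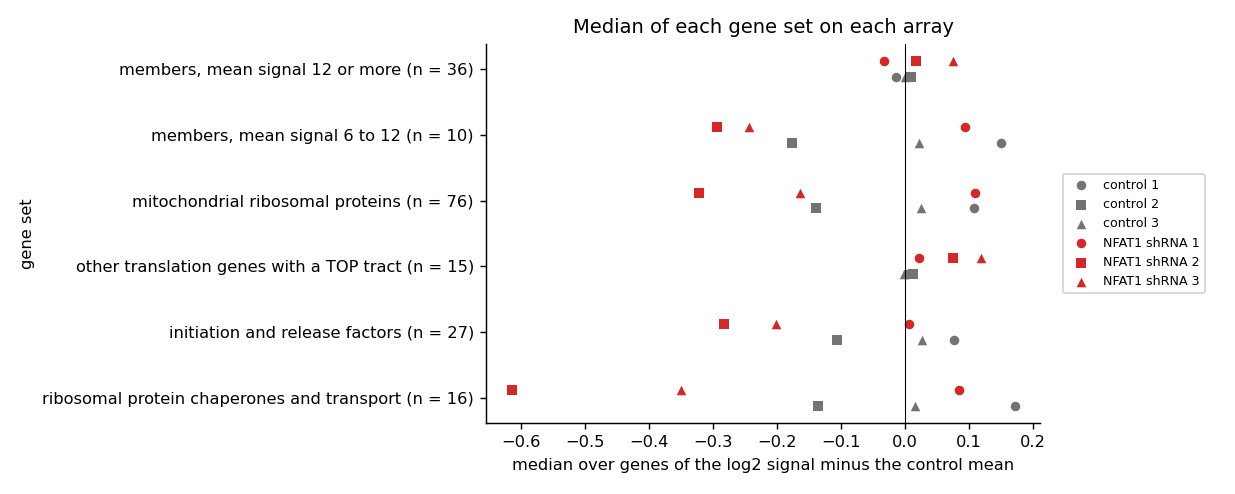
Median over genes of the log2 RMA signal minus the control mean (x axis) on each array, for members by signal and for 4 other gene lists (y axis), with controls in grey and NFAT1 shRNA arrays in red. Bright members stay between -0.033 and 0.076, while in the members of middle signal and 3 of the lists arrays 2 and 3 lie below all controls and array 1 does not. The list of other genes with a TOP tract also holds genes that do not encode translation factors, such as Vim.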

How the data were processed

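Affymetrix arrays of 3 control shRNA and 3 NFAT1 shRNA samples of 4T1 cells were analysed, with groups and replicate numbers taken from the labels. The deposited values are log2 signals that the authors made with RMA (version not given in the sources used here), per the submitters' processing notes. RMA equalises the distributions of arrays, so a shift of most transcripts would be hidden, and it compresses dim signals. Values ran from 1.80 to 14.22.

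Of 45037 probe sets, 34945 had 1 gene symbol, 932 had several and 9160 are unnamed here. The RefSeq gene table (GRCm38.p6) matched 34741 of the first by gene number, and 0 symbols changed. Per gene, the probe set with the highest mean was tested with lmFit and eBayes of limma 3.58.1 (R 4.3.3), without filter or covariates, and p-values (2-sided) were adjusted by Benjamini-Hochberg over all 18193 genes. Changed means an adjusted p under 0.05. The fit was tested on simulated data. Medians and promoter searches used Python 3.11.15 with pandas 2.3.3.

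The members, gene lists and alternatives were chosen with earlier results of these data known. Genes were named by rule: the 10 largest rises and the 10 largest falls among members with a signal of at least 6, paralogs and their parents, the 5 members whose probe sets differ most, list genes with an unadjusted p under 0.05, and any changed member. Non-overlapping members are named besides. Alternatives were filters, scaling, variance prior, array weights, a replicate block, left-out arrays and other choices of probe set. The number of arrays limits precision.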

Additional observations from a re-analysis of the deposited data

How the results depend on the processing

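The median difference of the members stayed within the spread between arrays under all alternatives. The count of changed members was 0 under all but one of them: it was 0 to 1 when single arrays were left out, the 1 being Rpl12 without NFAT1 shRNA array 1. Reading all 106 probe sets of the members, or the 110 with several symbols, was added after seeing the data and gave 0 changed. The count over all genes, 93, was 3380 with array weights, 407 without control 3 and NFAT1 shRNA array 1 together, 59 among genes with a mean signal of at least 6, and 0 to 3349 when single arrays were left out. It was 0 without any 1 of the controls, 2 without NFAT1 shRNA array 2, and 3349 without NFAT1 shRNA array 1. With the replicate number as a block it was 792. Deviations of same-numbered arrays correlated at 0.765, 0.675 and -0.018 over 8212 genes. Arrays numbered 1 and those numbered 2 thus deviated together across the groups, and those numbered 3 did not. The 3 deviations of a group sum to 0 for each gene, so these correlations are not independent of each other. Correlations between arrays of unlike number are not given here, so a link particular to equal numbers is not shown. The labels do not say that equal numbers pair the arrays, so the main fit held no block. The block called 0 members.

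Of 28 named members, 9 changed sign under an alternative, all with an unchanged verdict of no call. With the mean of all probe sets the differences were -0.299 for Rps9, -0.158 for Rps18, -0.123 for Rps10 and -0.141 for Rpl35. Without probe sets marked s, x or a they were -1.06, -0.0022, -0.940 and -0.797, because a dimmer probe set was then read. Near-zero differences turned for Rpl3l (-0.0012 with array medians subtracted, -0.0046 with quantile normalization again, -0.0400 without control 3 and NFAT1 shRNA array 1), Rps4l (-0.018 with array weights) and Rps24 (0.036 with array weights, 0.041 without the 2 arrays, 0.00038 with medians of bright genes subtracted). When single arrays were left out the differences ran from -0.044 to 0.050 for Rps24, -0.026 to 0.073 for Rpl3l, -0.017 to 0.050 for Rpl22, -0.087 to 0.070 for Rpl39l, -0.013 to 0.156 for Rps4l, -0.0064 to 0.055 for Rps10 and -0.017 to 0.062 for Rpl35. The cause was not tested. Probe sets read near background limit Rpl3l, Rpl39l, Rps4l and Rps16.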
